A study of Mus musculus with 12 samples.

Results

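Glycogen synthesis and breakdown was followed through 9 genes, chosen by name from the count table with earlier results of these data known. They were the precursor enzyme Ugp2, the primer Gyg, the synthase Gys1, the branching enzyme Gbe1, the phosphorylase genes Pygl, Pygb and Pygm, and the phosphatase targeting subunits Ppp1r3b and Ppp1r3c. They filled 10 of the table's entries, since Pygm had a second entry, among 56350 genes in all. Of these, 16484 genes had more than 10 counts in at least 3 libraries and were tested, including 8 of the 9 glycogen genes. Pygm did not pass this filter, and Pygl passed it only through its FG-4592-treated libraries.

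RNAseq covered 12 libraries of the MPC2 line, a conditionally immortalized clone of mouse mesenchymal progenitor cells, 3 in each of 4 conditions. Undifferentiated MPC2 cells, called MSCs, were kept at 33 °C, and osteocytes were the same line after 3 weeks at 37 °C in osteogenic medium with beta-glycerophosphate and ascorbic acid. Each was given vehicle (DMSO) or 50 µmol/L FG-4592 (Roxadustat) for 48 hours. The labels give no separate cultures for the replicates and all cells come from 1 clone, so the p-values measure the spread between these libraries, which may be technical.

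Cells make glycogen from UDP-glucose, which is added to a glycogenin primer by glycogen synthase and branched by the branching enzyme. Phosphorylase releases glucose units again, and PPP1R3 proteins bring protein phosphatase 1 to the particle, where it activates the synthase and inactivates the phosphorylase. FG-4592 inhibits the prolyl hydroxylases that mark hypoxia-inducible factors (HIF) for degradation, and glycogen synthesis genes are among those known to respond to HIF in several cell types.

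Total counts ranged from 52829185 to 68108470 per library, and a floor of 3 counts corresponded to 0.0447 to 0.0545 CPM (counts per 1000000 counts of the library), for counting error only. The treatment was visible in both cell types, with log2 fold changes of 4.86 in MSCs and 4.01 in osteocytes for Pdk1, an established HIF target. Of 6 osteocyte markers, Mepe, Sost and Pdpn were at or under the floor in all 4 conditions, whereas the 6 summed to between 61.4 and 76.7 CPM in vehicle-treated osteocytes against 1.69 to 3.13 CPM in vehicle-treated MSCs. With FG-4592 they summed to 6.06 to 7.00 CPM in osteocytes. The 6 markers of adipocytes, with Lep at or under the floor throughout, summed to 1683 to 2311 CPM in vehicle-treated osteocytes and to 82.8 to 89.1 CPM in vehicle-treated MSCs. Skeletal muscle markers summed to at most 1.19 CPM in any library, and hepatocyte markers to at most 0.185 CPM.

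Sequence before the transcription start was taken from RefSeq on GRCm38.p6 for 8 of the 9 genes. Ppp1r3b was not among them. The 250 bases before each start were searched on both strands for the letters ACGTG and GCGTG, the core of the HIF binding motif. Either core was found in 38.6% of 32817 mouse promoter windows of this length, and at least 2 matches in 16.7%. These 4 sequences are shown because Gys1 and Gbe1 rose strongly in both cell types, Pygl rose from near 0, and Ppp1r3c moved in opposite directions in MSCs and osteocytes. Capitals mark the cores, read 5′ to 3′ on the gene's strand, and only bases outside annotated exons are printed.
Gys1, chr7:45434710-45434838, plus strand: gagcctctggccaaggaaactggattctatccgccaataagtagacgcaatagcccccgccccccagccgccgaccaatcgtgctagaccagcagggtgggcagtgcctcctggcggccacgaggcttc
Gbe1, chr16:70313699-70313948, plus strand: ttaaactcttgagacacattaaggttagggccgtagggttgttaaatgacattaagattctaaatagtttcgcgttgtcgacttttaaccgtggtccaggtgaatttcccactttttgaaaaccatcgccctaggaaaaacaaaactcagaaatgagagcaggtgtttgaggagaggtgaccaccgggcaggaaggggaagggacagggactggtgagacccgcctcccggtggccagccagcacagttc
Pygl, chr12:70227684-70227840, minus strand: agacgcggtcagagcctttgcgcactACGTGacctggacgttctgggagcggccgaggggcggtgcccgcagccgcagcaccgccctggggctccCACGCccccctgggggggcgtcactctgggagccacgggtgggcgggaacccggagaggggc
Ppp1r3c, chr19:36736654-36736854, minus strand: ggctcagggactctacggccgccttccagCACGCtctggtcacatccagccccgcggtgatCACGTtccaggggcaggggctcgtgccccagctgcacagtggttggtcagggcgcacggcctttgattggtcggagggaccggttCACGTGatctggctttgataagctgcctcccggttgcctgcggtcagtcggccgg

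No core lay in the 250 bases before Gys1 or Gbe1. Pygl held ACGTG at bases -131 to -127 and GCGTG on the other strand at -62 to -58, counted from the RefSeq start. This Pygl window lies inside the coordinates of the counted gene, which reach chr12:70231488, so bases before its outermost annotated end were not searched. Ppp1r3c held 4 matches, of which the pair at -104 to -99 overlapped, since CACGTG reads ACGTG on both strands. Pygb and Pygm held 2 matches each, Gyg held 1, and Ugp2 held 6 before the upstream of its annotated starts and 0 before the other. A match describes letters in this window and not a bound site.

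FG-4592 raised Gys1, Gbe1, Pygl and Ppp1r3b in MSCs, and these 4 together with Ppp1r3c in osteocytes, where a call needed a log2 fold change over 1 in size and an FDR under 0.05. In MSCs 4 of the 8 tested genes were called up, beside 4.12% of all genes tested, and 0 were called down, beside 5.17%. In osteocytes 5 of 8 were called up, beside 6.25% of all genes tested, and 0 down, beside 4.26%. By FDR alone, 7 of 8 differed in MSCs and 8 of 8 in osteocytes, where 38.1% and 43.8% of all genes did so. The median log2 fold change of the 8 was 0.85 in MSCs and 1.70 in osteocytes, against -0.05 and 0.0015 over all genes tested. Pygl had to differ to be tested at all, so these counts are a description.

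Markers of other cell types moved with FG-4592 as well. Of 6 osteoblast markers, Ibsp, a bone matrix protein, and Alpl, the alkaline phosphatase, were called down in MSCs at -4.12 and -1.99 on the log2 scale, and Ibsp at -1.55 and Bglap, osteocalcin, at -1.28 in osteocytes. The 6 summed to 3002 to 3358 CPM with vehicle and 2751 to 2961 CPM with FG-4592 in MSCs. In osteocytes the sums were 2849 to 3320 and 2895 to 3811 CPM. Most of each sum was Col1a1, with means of 2799 and 2693 CPM in MSCs and 2749 and 2972 CPM in osteocytes. By FDR alone 4 of the 6 differed in MSCs and 5 in osteocytes, beside 38.1% and 43.8% of all genes tested. Their median log2 fold changes were -0.65 and -0.77. Of the 6 osteocyte markers 3 were tested, and Dmp1 and Phex were called down in both cell types. The third, Fgf23, a phosphate-regulating hormone, went from 0 to 5 counts per library with vehicle to 79 to 125 counts with FG-4592 in osteocytes, and only these treated libraries brought it past the filter. The 6 summed to 0.375 to 0.772 CPM in treated MSCs. Macrophage markers summed to 10.2 to 10.5 CPM with vehicle and 3.59 to 5.40 CPM with FG-4592 in MSCs. In osteocytes the sums were 17.8 to 20.4 CPM and 9.59 to 12.1 CPM. Adgre1 was at or under the floor throughout, and Ptprc was so in MSCs and had at most 9 counts in osteocytes. Their member Lyz2, a lysozyme, had means of 7.10 and 1.79 CPM in MSCs and 17.5 and 9.64 CPM in osteocytes. It was called down in MSCs at -1.997 and passed the FDR at -0.86 in osteocytes. Endothelial markers summed to at most 2.64 CPM in any library, and Tek was called up in MSCs at 2.03. The part of these markers in the responses of the glycogen genes was not tested.

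**Figure D1:**
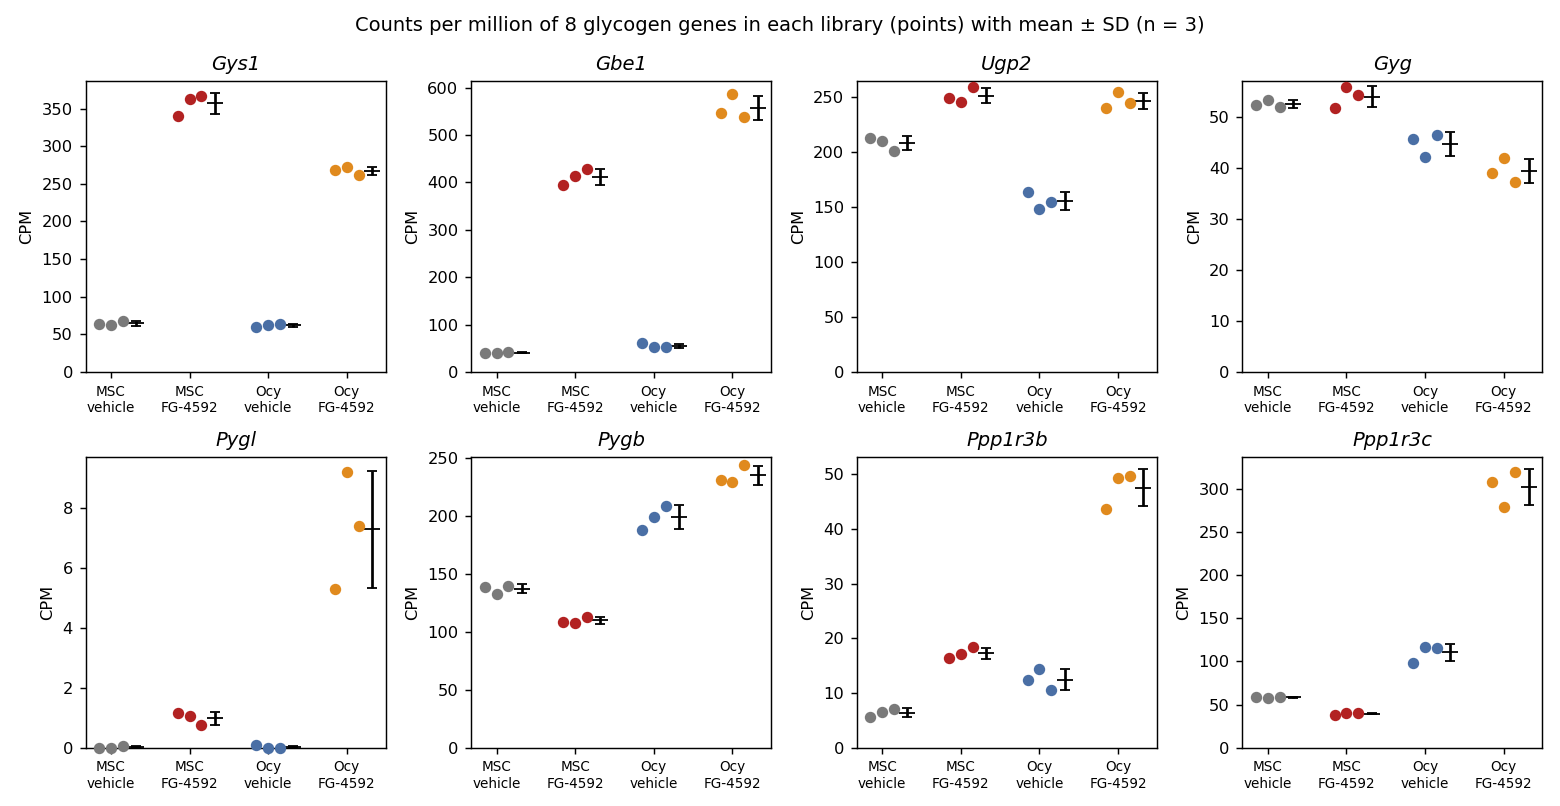
CPM (y axes, from 0, different in each panel) of the 8 tested glycogen genes in the 12 libraries, by condition (Ocy, osteocyte). Points are libraries and bars are mean ± SD (n = 3). Gys1 and Gbe1 are high in both FG-4592 groups, whereas Ppp1r3c is highest in FG-4592-treated osteocytes, at 279 to 319 CPM.

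Ugp2 (UDP-glucose pyrophosphorylase, ENSMUSG00000001891.16, chr11:21321138-21371201 on mm10), which makes UDP-glucose, changed modestly. Its levels were 213.1, 210.7 and 201.5 CPM in vehicle-treated MSCs and 249.3, 245.9 and 259.4 CPM with FG-4592. In osteocytes they were 164.1, 148.3 and 155.1 CPM with vehicle and 240.7, 255.0 and 244.7 CPM with FG-4592. Every treated library was above every vehicle library of its cell type, and the treated groups of both cell types overlapped. The log2 fold change was 0.27 (SE 0.0487, FDR 3.14e-04) in MSCs and 0.66 (SE 0.0489, FDR 1.43e-08) in osteocytes. The response was larger in osteocytes by 0.39 on the log2 scale (SE 0.0689, FDR 5.74e-04).

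Gyg (glycogenin, ENSMUSG00000019528.18, chr3:20122084-20155317), the self-glucosylating primer of the particle, moved little. In MSCs it lay at 52.4, 53.4 and 51.9 CPM with vehicle and at 51.8, 55.9 and 54.3 CPM with FG-4592, and the groups overlapped (log2 fold change 0.04, 95% interval -0.09 to 0.17, FDR 0.646). In osteocytes it lay at 45.7, 42.1 and 46.4 CPM with vehicle and at 39.1, 41.9 and 37.2 CPM with FG-4592. The treated osteocyte libraries were all below the vehicle libraries, by a narrow margin (log2 fold change -0.18, SE 0.0596, FDR 0.0191). This difference missed the FDR cutoff without treated osteocyte replicate 1 (FDR 0.0540) or 3 (FDR 0.0960), without vehicle-treated osteocyte replicate 3 (FDR 0.0666), and with no filter on low counts (FDR 0.0612). The difference between the responses was -0.22 on the log2 scale (95% interval -0.40 to -0.05, FDR 0.0639), and its FDR was between 0.0142 and 0.0498 under 8 of the alternatives.

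Gys1 (ENSMUSG00000003865.16, chr7:45434844-45456619), the glycogen synthase of muscle and most tissues other than liver, rose in both cell types. Its levels were 64.0, 62.2 and 68.0 CPM in vehicle-treated MSCs and 340.8, 363.2 and 366.7 CPM with FG-4592. The osteocyte levels were 59.5, 62.6 and 64.1 CPM with vehicle and 269.0, 272.1 and 261.5 CPM with FG-4592. The vehicle groups of the cell types overlapped, and the treated MSCs lay above the treated osteocytes in all libraries. Gys1 rose 5.51-fold in MSCs (log2 fold change 2.46, SE 0.0521, FDR 3.33e-15) and 4.31-fold in osteocytes (2.11, SE 0.0515, FDR 1.51e-14). The rise was smaller in osteocytes by a log2 difference of -0.35 (SE 0.0702, FDR 0.0015). Gys1 shares 310 exonic bases, 6.47% of its exonic length, with Ruvbl2, whose counts of 1437 to 2302 were under those of Gys1 in every library.

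Gbe1 (ENSMUSG00000022707.16, chr16:70313949-70569716), which forms the branches of glycogen, rose by about the same factor in both cell types. In MSCs its levels were 39.7, 40.8 and 42.2 CPM with vehicle and 394.6, 414.1 and 428.0 CPM with FG-4592. In osteocytes they were 60.6, 53.0 and 52.5 CPM with vehicle and 546.0, 586.5 and 538.9 CPM with FG-4592. Both treated groups lay far above their vehicle groups, and the osteocytes were above the MSCs within each treatment. The rise was 10.1-fold in MSCs (log2 fold change 3.33, SE 0.0643, FDR 1.20e-15) and 10.1-fold in osteocytes (3.33, SE 0.0640, FDR 7.56e-16). The difference between the responses had a 95% interval of -0.18 to 0.17 on the log2 scale (FDR 0.99).

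Ppp1r3b (ENSMUSG00000046794.9, chr8:35375739-35388139), a glycogen-targeting subunit of protein phosphatase 1 best known from liver, rose in both cell types from a low level. Its levels were 5.59, 6.51 and 7.13 CPM in vehicle-treated MSCs and 16.4, 17.1 and 18.4 CPM with FG-4592. Osteocytes had 12.4, 14.3 and 10.5 CPM with vehicle and 43.6, 49.3 and 49.7 CPM with FG-4592. The 4 conditions did not overlap, in the order vehicle-treated MSCs, vehicle-treated osteocytes, FG-4592-treated MSCs and FG-4592-treated osteocytes. The log2 fold change was 1.43 (SE 0.114, FDR 5.01e-08) in MSCs and 1.94 (SE 0.110, FDR 5.61e-10) in osteocytes. The responses differed by 0.51 on the log2 scale (SE 0.156, FDR 0.0251), under the fold cutoff. This FDR rose to between 0.0507 and 0.121 without any single one of 8 libraries, namely treated MSC replicates 1 and 2, vehicle-treated MSC replicates 2 and 3, treated osteocyte replicates 2 and 3, and vehicle-treated osteocyte replicates 1 and 3.

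Ppp1r3c (ENSMUSG00000067279.3, chr19:36731731-36736653), the related subunit also called protein targeting to glycogen, fell in MSCs and rose in osteocytes. In MSCs its levels were 58.5, 58.1 and 58.5 CPM with vehicle and 38.5, 39.7 and 39.8 CPM with FG-4592. In osteocytes they were 98.6, 116.7 and 116.0 CPM with vehicle and 307.9, 279.0 and 319.4 CPM with FG-4592. All treated MSCs were below all vehicle-treated MSCs, and all treated osteocytes were above every other library. The fall in MSCs was -0.57 on the log2 scale (SE 0.0653, FDR 3.22e-06), which passed the FDR and not the fold cutoff, and the rise in osteocytes was 2.74-fold (log2 fold change 1.45, SE 0.0644, FDR 2.50e-11). The difference between the responses was 2.02 on the log2 scale (SE 0.0915, FDR 4.13e-10), and it lay between 1.90 and 2.07 when each library was left out in turn.

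Pygb (brain-type glycogen phosphorylase, ENSMUSG00000033059.7, chr2:150786735-150831758) was far above Pygl in level in all conditions. In MSCs its levels were 138.8, 132.8 and 140.1 CPM with vehicle and 109.0, 107.7 and 113.2 CPM with FG-4592. The osteocyte libraries had 188.3, 199.8 and 209.0 CPM with vehicle and 231.6, 229.8 and 244.6 CPM with FG-4592. The groups did not overlap, and the direction was down in MSCs and up in osteocytes. Both changes were small, at -0.32 (SE 0.0495, FDR 7.90e-05) and 0.24 (SE 0.0492, FDR 7.45e-04) on the log2 scale, and they differed by 0.56 (SE 0.0698, FDR 2.52e-05). Each was under the fold cutoff.

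Pygl (liver-type glycogen phosphorylase, ENSMUSG00000021069.17, chr12:70190811-70231488) lay at or near the floor without FG-4592. Vehicle-treated MSCs held 0, 0 and 3 of its counts, and FG-4592-treated MSCs 69, 70 and 48. For osteocytes the counts were 5, 0 and 0 under vehicle, then 343, 562 and 448 under FG-4592. No vehicle library reached any treated one, and treated osteocytes were above treated MSCs in all libraries. Summed over libraries, treated over vehicle gave a ratio of 58.4 in MSCs (95% counting interval 19.7 to 285.5) and of 266.0 in osteocytes (113.7 to 820.6), given with no FDR since the treated libraries alone brought Pygl past the filter. Treated osteocytes exceeded treated MSCs 7.39-fold (6.34 to 8.66; FDR 5.00e-06), and the intervals cover counting error only. With so few vehicle counts, the difference between the responses had a 95% interval of -1.22 to 5.73 on the log2 scale (FDR 0.358). The fitted log2 fold change was 5.71 in MSCs and 8.92 without vehicle-treated MSC replicate 3. In osteocytes it was 7.97, and 11.80 without vehicle-treated osteocyte replicate 1. Each removal leaves a vehicle group at 0 counts, so that the fitted value then rests on the prior count.

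Pygm (muscle-type glycogen phosphorylase, ENSMUSG00000032648.14, chr19:6384399-6398459) had 1 count in 1 vehicle-treated MSC library and 0 in the other 11. A second Pygm entry on an assembly scaffold, with the same exonic length of 3218 bases, had 0 counts in all 12 libraries. Only uniquely mapped reads were counted, and 227 protein-coding genes with such a scaffold entry had a median of 0.25 mean counts, against 105.5 in 21596 other protein-coding genes. The level of Pygm therefore cannot be read from these counts.

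**Figure D2:**
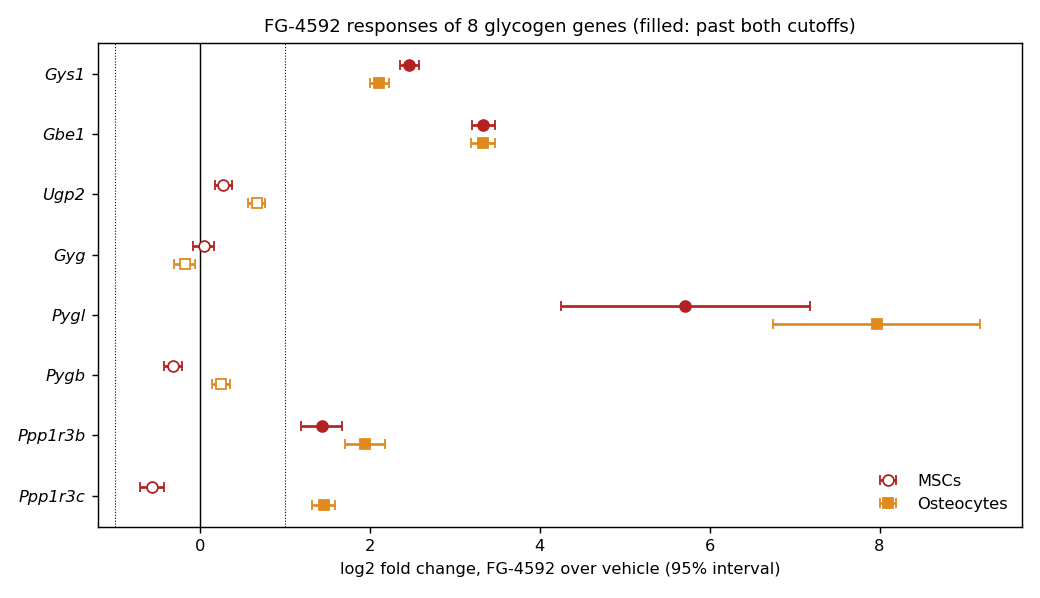
Log2 fold change of FG-4592 over vehicle (x axis) for the 8 tested glycogen genes, with 95% intervals from the fit, in MSCs (circles) and osteocytes (squares). Filled symbols are past both cutoffs and dotted lines mark a log2 fold change of 1 in either direction. Gbe1 lies at 3.33 in both, Ppp1r3c lies on opposite sides of 0, and the wide intervals of Pygl come from vehicle groups with 0 to 5 counts.

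Levels of different genes were compared as CPM per kb of exonic length. In vehicle-treated MSCs the order was Ugp2 at 67.9 CPM per kb, Pygb at 28.5, Gyg at 22.4, Ppp1r3c at 21.4, Gys1 at 13.5, Gbe1 at 7.64 and Ppp1r3b at 1.03, and no neighbours overlapped. With FG-4592, Gbe1 at 77.0 CPM per kb and Gys1 at 74.5 overlapped each other just under Ugp2 at 82.0, and Gyg at 23.0 overlapped Pygb at 22.9. Synthase and branching enzyme thus moved from below the phosphorylase Pygb to above it in level.

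In vehicle-treated osteocytes Ugp2 led at 50.8 CPM per kb, followed by Pygb at 41.4 and Ppp1r3c at 40.5, which overlapped. Gyg at 19.1, Gys1 at 13.0, Gbe1 at 10.3 and Ppp1r3b at 1.99 CPM per kb came next, without overlap. With FG-4592, Ppp1r3c at 110.9 CPM per kb and Gbe1 at 104.1 overlapped at the top, above Ugp2 at 80.4, Gys1 at 55.9, Pygb at 48.9, Gyg at 16.8, Ppp1r3b at 7.64 and Pygl at 1.06. Ppp1r3c was therefore behind Ugp2, Pygb and Gyg in vehicle-treated MSCs and above all 3 in FG-4592-treated osteocytes.

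**Figure D3:**
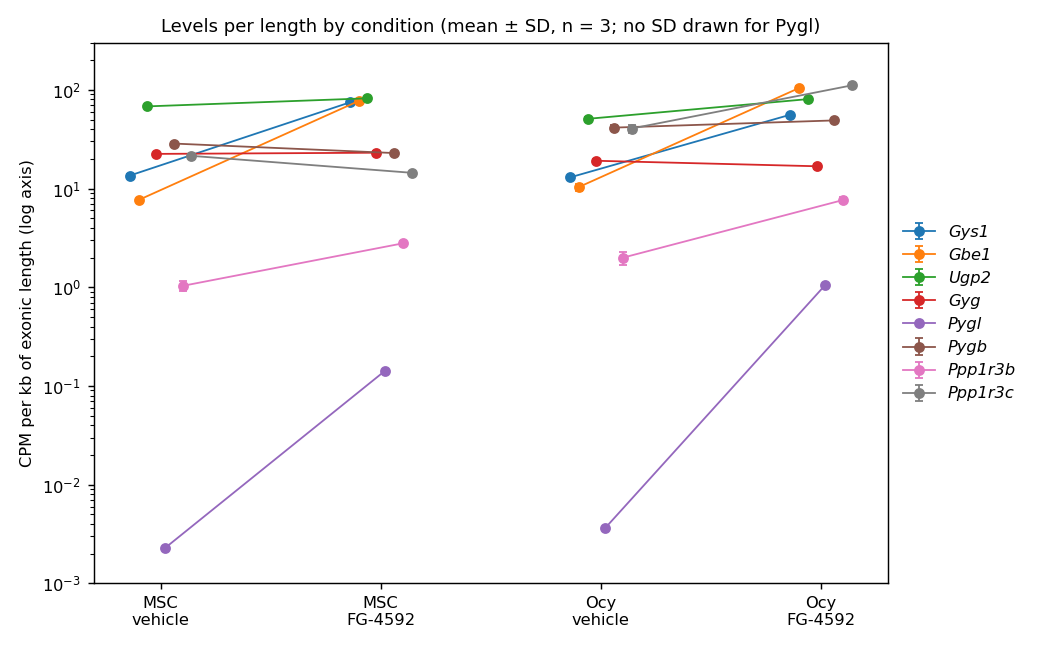
Mean level in CPM per kb of exonic length (y axis, log scale) of the 8 tested glycogen genes in the 4 conditions (Ocy, osteocyte), with SD (n = 3) except for Pygl, whose vehicle libraries hold 0 to 5 counts. Lines join vehicle and FG-4592 within a cell type. Gys1 and Gbe1 rise to just under Ugp2 in MSCs, and Ppp1r3c reaches 110.9 CPM per kb in treated osteocytes.

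Ratios within a library showed the same shifts. Gys1 over Pygb per kb was 0.474 ± 0.0123 (SD, n = 3) in vehicle-treated MSCs and 3.26 ± 0.123 with FG-4592. In osteocytes it was 0.313 ± 0.00483 with vehicle and 1.14 ± 0.0611 with FG-4592. The treated and vehicle values did not overlap in either cell type.

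Gbe1 over Gys1 per kb was 0.566 ± 0.0183 in vehicle-treated MSCs, 1.03 ± 0.0122 in treated MSCs, 0.801 ± 0.0970 in vehicle-treated osteocytes and 1.86 ± 0.0586 in treated osteocytes (SD, n = 3 each). Branching enzyme transcript thus rose more than synthase transcript in both cell types. Ppp1r3c over Ppp1r3b was 21.0 ± 2.64 in vehicle-treated MSCs and 5.20 ± 0.228 with FG-4592, whereas it was 20.7 ± 3.96 and 14.6 ± 1.599 in osteocytes. Pygl made up 0.622% ± 0.144 of the summed Pygl and Pygb level in treated MSCs and 2.11% ± 0.575 in treated osteocytes, so that Pygb remained the higher of these 2 genes.

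Osteocytes and MSCs were first compared in vehicle, where most differences were modest. Of the 8 tested glycogen genes 0 were called up and 0 down, beside 9.83% and 6.08% of all genes tested, and 6 differed by FDR alone, beside 51.0%. The highest were Ppp1r3b with a log2 fold change of 0.95 (SE 0.115, FDR 3.91e-06) and Ppp1r3c with 0.92 (SE 0.0646, FDR 6.01e-09), osteocytes over MSCs. Both lay close to the fold cutoff. Ppp1r3b reached 1.07 without vehicle-treated MSC replicate 3 and 1.05 without vehicle-treated osteocyte replicate 3, and Ppp1r3c reached 1.03 without vehicle-treated osteocyte replicate 1. Pygb at 0.54 and Gbe1 at 0.44 were higher in osteocytes, Ugp2 at -0.42 and Gyg at -0.23 were lower, all on the log2 scale and past the FDR, and Gys1 was at -0.06 (FDR 0.335). Without vehicle-treated osteocyte replicate 2 the FDR of Gyg was 0.0510. In bulk RNA, fewer cells of a type and less RNA per cell cannot be told apart, and temperature, medium and time in culture cannot be told apart from cell type. The adipocyte markers were higher in osteocytes. So were the means of the chondrocyte marker Col2a1 (62.7 against 0.77 CPM), Lyz2 (17.5 against 7.10 CPM) and Tek (1.06 against 0.13 CPM). The chondrocyte marker Sox9 (51.7 against 84.2 CPM) and the macrophage marker Csf1r (0.42 against 1.59 CPM) were lower. The part of these markers in the differences was not tested.

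With FG-4592 in both, 4 of 8 genes were called higher in osteocytes, beside 12.6% of all genes tested, and 0 lower, beside 5.64%, while 7 differed by FDR alone, beside 55.8%. The 4 were Ppp1r3c with a log2 fold change of 2.94 (SE 0.0684, FDR 4.70e-15), Pygl with 2.89, Ppp1r3b with 1.46 and Pygb with 1.10. Past the FDR only, Gbe1 at 0.43 was higher and Gyg at -0.46 and Gys1 at -0.42 were lower in osteocytes. Ugp2 was at -0.03 (95% interval -0.13 to 0.08, FDR 0.661). Adipocyte markers in treated cells summed to 1924 to 2297 CPM in osteocytes and 69.9 to 73.0 CPM in MSCs. The means of Col2a1 (293.9 against 1.31 CPM) and Lyz2 (9.64 against 1.79 CPM) were also higher in treated osteocytes. Those of Sox9 (119.3 against 154.0 CPM) and Csf1r (0.30 against 0.83 CPM) were lower. The part of these markers was not tested.

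For the difference between the FG-4592 responses, 1 of 8 genes, Ppp1r3c, was called, with the larger response in osteocytes, beside 3.94% of all genes tested, and 0 in the other direction, beside 1.07%. By FDR alone 5 of 8 differed, beside 24.3%, namely Ppp1r3c, Pygb, Ugp2, Gys1 and Ppp1r3b. These comparisons share their libraries, so the values of each are given side by side and not as independent results. Adipocyte markers lay between 1683 and 2311 CPM in vehicle-treated and between 1924 and 2297 CPM in FG-4592-treated osteocytes, and most of these sums was Adipoq. Of the 5 tested members, Fabp4, a fatty acid carrier, was called up in osteocytes (log2 fold change 1.19) and Cidec, a lipid droplet protein, passed the FDR at 0.62. Plin1 at 0.21, Adipoq at -0.10 and Pparg at -0.11 did not pass there (FDR 0.0651, 0.450 and 0.0855). For the difference between the responses, Adipoq at 1.34 and Fabp4 at 1.04 were called, and Adipoq had been called down in MSCs at -1.44. The 5 chondrocyte markers summed to 107 to 127 CPM with vehicle and to 365 to 444 CPM with FG-4592 in osteocytes, with Acan at or under the floor throughout. That sum followed Col2a1 and Sox9, called up at log2 fold changes of 2.23 and 1.21, while Matn3 was called down at -3.48. In MSCs the sums were 82.4 to 90.7 CPM with vehicle and 146 to 161 CPM with FG-4592. Most of these MSC sums was Sox9, with means of 84.2 and 154.0 CPM, while Col2a1 had means of 0.77 and 1.31 CPM. The part of either marker list in the result was not tested.

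A wider list held 29 other genes of glycogen and glucose phosphate metabolism, of which 25 were tested. With FG-4592, 7 of 25 were called up and 1 down in MSCs, beside 4.12% and 5.17% of all genes tested, and 6 up and 0 down in osteocytes, beside 6.25% and 4.26%. One of the 7 is Ppp1r3g, which passed the filter on low counts only through treated libraries. Their median log2 fold changes of 0.28 and 0.20 were nearer to those of all genes tested than the medians of the 8 were. Both lists were chosen with earlier results of these data known, and the 8 include Pygl, so the medians are a description.

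Stbd1, which binds glycogen for delivery to lysosomes, was called up in osteocytes (1.03, SE 0.259, FDR 0.00381) and was at 0.33 (FDR 0.311) in MSCs. Its call in osteocytes was lost without vehicle-treated replicate 1 (0.82), vehicle-treated replicate 2 (0.89) or treated replicate 2 (0.89), and under scaling by library size alone (0.94).

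Epm2a encodes laforin, the glycogen phosphatase, and went from 5.99 to 6.86 CPM in vehicle-treated MSCs to 75.1 to 84.0 CPM with FG-4592 (log2 fold change 3.62, SE 0.0885, FDR 2.41e-14). In osteocytes it rose by a log2 fold change of 2.68 (SE 0.0820, FDR 2.32e-13). Ppp1r3e, another targeting subunit, rose by 1.98 and 1.52 on the log2 scale in MSCs and osteocytes (FDR 2.72e-11 and 3.78e-10). Ppp1r3g, a further subunit, had 4, 0 and 0 counts in vehicle-treated MSCs and 15, 9 and 32 with FG-4592. In osteocytes it had 0, 2 and 0 counts with vehicle and 9, 12 and 1 with FG-4592. No FDR is given for either response, since the treated libraries alone brought it past the filter, and its place among the 7 in MSCs was lost without vehicle-treated replicate 2 or replicate 3.

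Hexokinases make the glucose 6-phosphate from which glycogen is built. Hk1 rose by 2.03 (SE 0.0412, FDR 2.17e-15) in MSCs and 1.57 (SE 0.0407, FDR 2.98e-14) in osteocytes on the log2 scale. Hk2 rose from 9.37 to 12.2 CPM to 113 to 119 CPM in MSCs, and from 31.1 to 37.8 CPM to 117 to 129 CPM in osteocytes. Its treated groups thus overlapped while its vehicle groups did not, and the log2 fold changes of 3.45 and 1.77 differed by -1.67 (SE 0.123, FDR 1.02e-07). Slc37a4, the glucose 6-phosphate transporter, rose by 1.38 and 1.34 on the log2 scale (FDR 3.95e-09 and 3.81e-09).

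Phkg1, a catalytic subunit of phosphorylase kinase, was the gene of the wider list called down. Its levels were 3.23, 3.74 and 3.22 CPM in vehicle-treated MSCs and 1.44, 1.15 and 1.28 CPM with FG-4592 (log2 fold change -1.40, SE 0.185, FDR 1.53e-05). In osteocytes they were 4.67, 6.70 and 5.81 CPM with vehicle and 5.22, 5.51 and 7.08 CPM with FG-4592, and the groups overlapped (0.05, FDR 0.831). The responses differed by 1.45 on the log2 scale (SE 0.249, FDR 4.69e-04). Phkg1 shares 630 exonic bases with Sumf2, which had 926 to 1574 counts against 77 to 429 for Phkg1, and reads in the shared bases were counted for both.

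**Figure D4:**
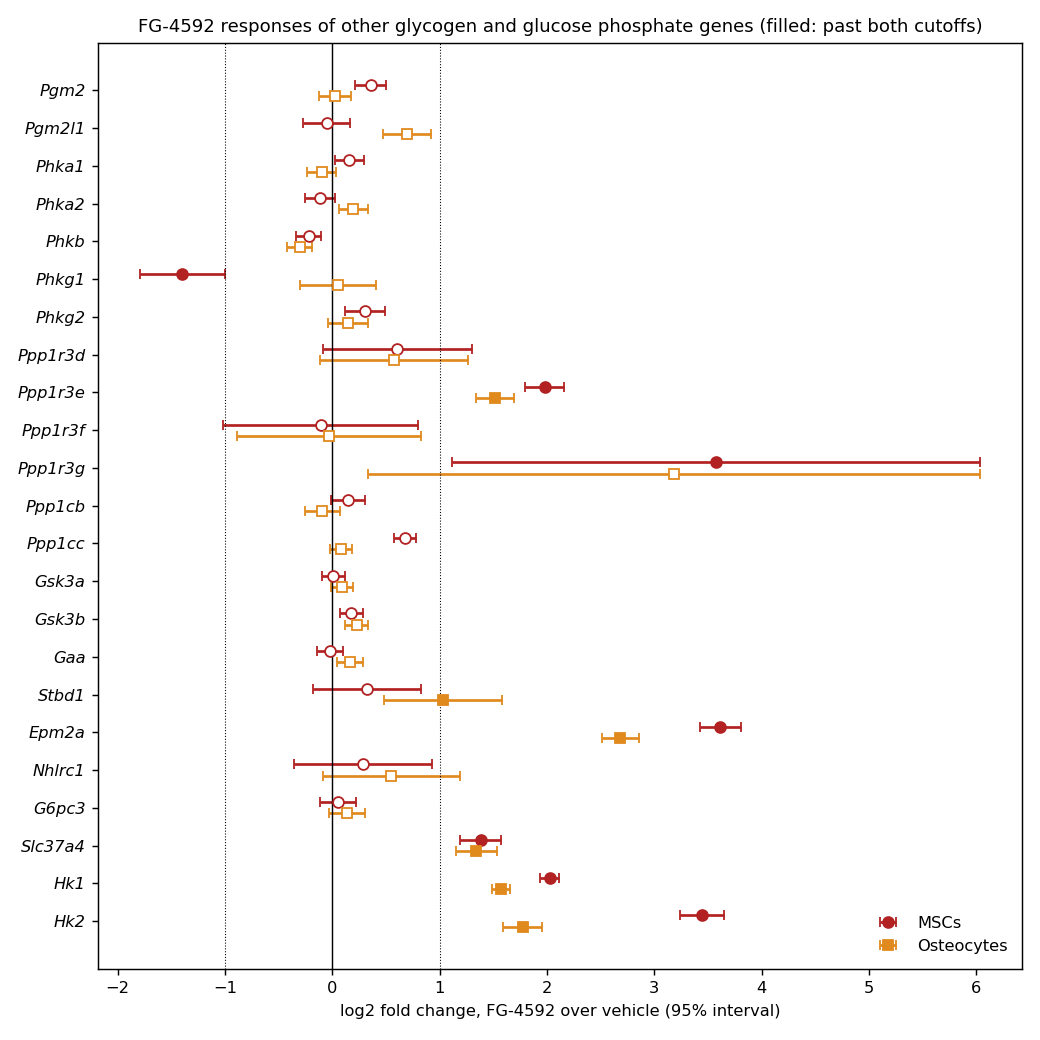
Log2 fold change of FG-4592 over vehicle (x axis) with 95% intervals for other genes of glycogen and glucose phosphate metabolism in MSCs (circles) and osteocytes (squares), without Ppp1ca, which has a second entry on an assembly scaffold. Filled symbols are past both cutoffs. Epm2a and Hk2 have the largest responses with narrow intervals in MSCs, at 3.62 and 3.45, and Phkg1 is the gene called down.

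For the tested members other than Gyg, the 3 protein-coding genes with the most similar pattern were sought in the 10856 genes averaging 100 counts or more, by the root mean square (RMS) difference of log2 CPM centred on each gene over the 12 libraries. Gys1 lay nearest to Wdr54 (RMS difference 0.117), then Gpi1 and Aldoa. Gbe1 lay nearest to Egln1 (0.143), which encodes the oxygen sensor PHD2, then Pfkl and Ero1l. Gpi1, Aldoa and Pfkl encode enzymes of glycolysis.

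Ppp1r3c lay nearest to Arl5c (RMS difference 0.146), Fam43a and Cd93, whose log2 fold changes were between -0.56 and -0.24 in MSCs and between 1.22 and 1.64 in osteocytes. Ppp1r3b lay nearest to Unc13a (0.179), Lims2 and Klf2, and Pygb to Scara3 (0.0511), Atf7ip and B3gntl1. Ugp2 lay nearest to Traf6 (0.0688), Phf13 and Mllt3. Pygl lay nearest to Dpp6 (0.487), followed by Tnfrsf9 and Syt5. Dpp6 had log2 fold changes of 5.43 in MSCs and 8.21 in osteocytes, beside fitted values of 5.71 and 7.97 for Pygl. The vehicle libraries of Pygl held 0 to 5 counts, so its distance cannot be set against those of the other members.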

How the data were processed

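Alignment by the authors used STAR 2.7.2a on mm10, for read pairs of 100 bases. Their gene assignment used featureCounts (Subread 1.6.2) with Gencode M22 and unique alignments, and a pair went to each gene it overlapped, with no strand option named. They deposited raw counts per gene, without normalization. All 12 columns were used, grouped by the cell type and treatment of the labels, which name no batch.

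A gene was kept if 3 or more libraries had over 10 counts. The quasi-likelihood test of edgeR 4.0.16 (R 4.3.3) was fitted to all 12 libraries after TMM scaling, and the FDR is the Benjamini-Hochberg value over all genes tested. CPM are counts over the total of tested genes times the TMM factor. SE is the fold change over the root of F. The script was tested on simulated data. With 3 libraries against 3, the smallest two-sided exact permutation p is 0.1, so none is given. Replicate pairs differed by a chi-square of 9.89 to 37.7 per degree of freedom, so no pair of libraries looked like a duplicate. Totals of 52829185 to 68108470 counts set the precision.

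The 9 genes and the lists were chosen with earlier results of these data known. Named were the 9 genes, those of the 29 called for FG-4592 or the response difference, a check gene and the nearest patterns. Some of these are not reported here. Alternatives were RLE factors, library size alone, no filter, DESeq2 1.42.0, the replicate number as a block and each library left out. Promoter windows came from RefSeq on GRCm38.p6, and exonic overlaps from the exon coordinates of the deposited table.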

Additional observations from a re-analysis of the deposited data

Results flagged for a closer look

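The FG-4592 response of Ppp1r3c differed between the cell types by 2.02 on the log2 scale (osteocytes minus MSCs, FDR 4.13e-10), down in 3 of 3 treated MSC libraries and up in 3 of 3 treated osteocyte libraries against vehicle. The response of Phkg1 differed by 1.45 (FDR 4.69e-04), with a fall called in MSCs and overlapping groups in osteocytes. The response of Hk2 differed by -1.67 (FDR 1.02e-07), with a rise called in both cell types that was larger in MSCs. All 3 were tested as the interaction contrast in edgeR.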

How the results depend on the processing

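The numbers of glycogen genes called with FG-4592, 4 in MSCs, 5 in osteocytes, 4 between treated cells and 1 for the response difference, were the same under RLE factors, library size alone, no filter, DESeq2 and each left-out library. The number called up between vehicle-treated cells ranged from 0 to 1 with a library left out. With the replicate block the counts of glycogen genes called were again 4, 5, 0, 4 and 1, and 653 genes were called up and 791 down in MSCs (679 and 853 without it). Deviations of same-numbered libraries correlated between -0.0528 and 0.0543, and a library correlated best with its own number in 5 of 24 pairings. No pairing by number was visible, although this check cannot exclude that same-numbered samples were handled together.

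Among the genes named, directions turned where no call was made, as follows. Under library size alone, Gyg in MSCs was at -0.0453 and Phkg1 in osteocytes at -0.0451. With a library left out, Phkg1 in osteocytes ranged from -0.0946 to 0.166, Gys1 between vehicle-treated cells from -0.0833 to 0.0156, Pygl there from -3.18 to 3.85, the response difference of Gbe1 from -0.0777 to 0.0253 and that of Pygl from -0.97 to 6.06. Without the filter the response difference of Gbe1 was 0.0131. The causes were not tested. The order of levels was read in each library, and the 3 nearest genes were the same with a prior count of 0.5 for 7 of the 8 genes, Pygl keeping 2 of 3. At this depth Pygl in vehicle and Ppp1r3g limit what can be said of their responses.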

Other observations

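Of the 29 other genes, Gys2 (liver glycogen synthase), G6pc (glucose 6-phosphatase), Ppp1r3a and Pgm1 did not pass the filter. Gys2 had 0 counts in 10 libraries and 1 and 6 counts in 2 FG-4592-treated osteocyte libraries, and G6pc had at most 7 counts in any library. Pgm1, which interconverts glucose phosphates, has a second table entry on an assembly scaffold with the same exonic length, as Pygm has, and had 0 to 24 counts. Ppp1ca, a catalytic subunit of protein phosphatase 1, has such an entry too and had 11 to 36 counts. Of the 227 protein-coding genes with such an entry 0.441% had a mean above 100 counts, against 50.2% of others, so low counts of Pgm1 and Ppp1ca do not show low expression.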
